A study of Mus musculus with 8 samples.

Results

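Border macrophages are the macrophages that live at the edges of the brain, in the perivascular spaces, the meninges and the choroid plexus, and 8 of their marker genes were followed here: Mrc1, Cd163, Stab1, Lyve1, Folr2, Pf4, F13a1 and Cbr2. The genes were chosen by symbol, as markers of perivascular and meningeal macrophages, and each matched 1 of the 38026 rows of the deposited table. Bulk RNA-seq was available for 5 libraries of tumor-associated microglia and macrophages (TAMs) from medulloblastoma, a tumor of the cerebellum, and 3 libraries of microglia from normal cerebral cortex. The TAM libraries 1 to 5 came from mice aged 68, 90, 61, 66 and 62 days after birth, and the 3 microglia libraries from mice aged 60 days. All mice were labelled C57BL/6, the driver of the tumors is not given in the sources used here, and nothing says whether the cortex mice bore tumors. Tissue was digested with papain, myelin was depleted and cells were captured with magnetic beads against CD11b, an integrin subunit that border macrophages carry as well as microglia. The capture therefore does not separate the cell types, and in bulk RNA fewer cells of a type and less RNA per cell cannot be told apart. Tissue of origin (tumor or cortex) and age differ between the groups by design and cannot be told apart from the tumor itself.

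Border macrophages arise largely from embryonic precursors and depend, like microglia, on the receptor CSF1R. They sample the fluid around vessels, take up proteins and debris through scavenger receptors, and are told from microglia by genes such as Mrc1 and Pf4, which resting microglia carry at low levels. Mrc1 encodes the mannose receptor CD206, Cd163 the receptor for haptoglobin-haemoglobin complexes, and Stab1 the scavenger receptor stabilin-1. Lyve1 encodes a receptor for hyaluronan and Folr2 a folate receptor. Pf4 encodes the chemokine CXCL4, F13a1 the catalytic subunit of the transglutaminase factor XIII, and Cbr2 a carbonyl reductase. Several are not private to these cells: platelets hold PF4 and factor XIII, lymphatic vessels carry LYVE1 and some endothelium carries stabilin-1.

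The stretch before the transcription start is shown for 6 of the 8 genes, because Mrc1, Pf4, F13a1 and Cbr2 were below every microglia library in the same 4 TAM libraries but not in TAM replicate 2, whereas Folr2 was higher in TAMs and Cd163 lower in all of them. The sequences are the 250 bases upstream of a RefSeq start, read 5′ to 3′ on the gene's strand, with matches of the searched letters in capitals. The start (GRCm38.p6, the same assembly as mm10) was the one nearest the gene's 5′ end in the deposited table. It lay 93 bases inside the listed gene for Cbr2 and 22 bases inside for Mrc1. The last part of those stretches, with the Cbr2 match, is therefore within the listed gene.
Mrc1 chr2:14229164-14229413 (plus strand): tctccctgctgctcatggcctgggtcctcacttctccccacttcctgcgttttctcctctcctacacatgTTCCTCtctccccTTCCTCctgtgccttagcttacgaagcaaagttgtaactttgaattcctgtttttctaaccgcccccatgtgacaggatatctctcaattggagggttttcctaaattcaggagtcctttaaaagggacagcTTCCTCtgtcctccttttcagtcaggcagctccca
Pf4 chr5:90772185-90772434 (plus strand): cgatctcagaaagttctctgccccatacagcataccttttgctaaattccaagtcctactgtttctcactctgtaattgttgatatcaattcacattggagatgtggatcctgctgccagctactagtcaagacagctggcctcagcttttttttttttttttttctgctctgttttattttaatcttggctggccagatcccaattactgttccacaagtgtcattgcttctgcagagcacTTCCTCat
F13a1 chr13:37050245-37050494 (minus strand): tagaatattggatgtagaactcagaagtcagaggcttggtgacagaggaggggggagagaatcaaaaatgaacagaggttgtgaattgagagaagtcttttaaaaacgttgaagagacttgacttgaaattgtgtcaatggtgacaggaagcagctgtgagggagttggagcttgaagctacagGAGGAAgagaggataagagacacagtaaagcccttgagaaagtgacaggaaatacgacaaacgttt
Cbr2 chr11:120732022-120732271 (minus strand): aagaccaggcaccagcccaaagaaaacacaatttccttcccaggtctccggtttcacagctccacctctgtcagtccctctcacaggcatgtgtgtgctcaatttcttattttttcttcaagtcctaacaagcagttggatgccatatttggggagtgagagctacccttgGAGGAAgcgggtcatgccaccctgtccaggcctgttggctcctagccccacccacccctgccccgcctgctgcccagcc
Cd163 chr6:124304401-124304650 (plus strand): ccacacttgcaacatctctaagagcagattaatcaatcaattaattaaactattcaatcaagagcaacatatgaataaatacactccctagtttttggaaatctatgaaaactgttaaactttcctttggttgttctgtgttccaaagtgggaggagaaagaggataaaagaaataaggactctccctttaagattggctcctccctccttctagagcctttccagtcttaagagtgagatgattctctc
Folr2 chr7:101845332-101845581 (minus strand): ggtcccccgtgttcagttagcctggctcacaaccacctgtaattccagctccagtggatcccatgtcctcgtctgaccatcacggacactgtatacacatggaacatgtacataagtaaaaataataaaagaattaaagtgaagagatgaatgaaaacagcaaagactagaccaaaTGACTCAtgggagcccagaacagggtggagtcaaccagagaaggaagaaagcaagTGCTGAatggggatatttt
The letters searched on both strands were GAGGAA, a core of sites of the myeloid factor PU.1, TGCTGA, a half-site of MAF factors, TGANTCA, the AP-1 site, and TATAAA, the TATA box. No matches overlapped. Of the 7 genes matched in the promoter table, 5 held GAGGAA (Mrc1 with 3 matches, and Pf4, F13a1, Cbr2 and Stab1 with 1 each), as did 23.2% of 32851 promoters of the same length. TGCTGA was present in Stab1 and Folr2 (16.1% of promoters), TGANTCA in Folr2 (6.75%) and TATAAA in none (12.4%). These are matches of letters, not sites.

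Expression was given in TPM, transcripts per 1000000, which is scaled for transcript length and so allows levels of different genes to be compared within a library. Depth is unknown, and the number of libraries limits the precision. All 8 genes passed the filter of at least 1 TPM in at least 3 libraries. Among the TAM libraries Stab1 was the most abundant marker at 520.2 ± 204 TPM (SD, n = 5), followed by Folr2 at 179 ± 43.9 TPM, Pf4, Mrc1, Cbr2 and F13a1, with Lyve1 and Cd163 last at 14.3 ± 8.95 and 13.9 ± 7.95 TPM. In the microglia libraries Stab1 also led, at 587 ± 51.0 TPM (SD, n = 3), followed by Pf4, Cbr2, Mrc1, F13a1, Lyve1, Folr2 and Cd163. All neighbours in the TAM order from Folr2 to Cd163 differed by less than the larger of their SDs, as did Cbr2 and Mrc1, F13a1 and Lyve1, and Folr2 and Cd163 in microglia. Folr2 stood second in TAMs and next to last in microglia. The 8 genes summed to 665 to 1799 TPM in TAMs and 1345 to 1766 TPM in microglia.

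Of the 15262 genes tested, 56.4% were called lower and 8.22% higher in TAMs (limma on log2(TPM + 1), Benjamini-Hochberg adjusted p under 0.05), and the median log2 fold change over all of them was -0.65. On TPM rescaled so that most genes keep their level (median-ratio scaling), that median was -0.04, and 25.1% were called lower and 24.6% higher. Among the 8 markers, 4 were called lower (Lyve1, Cd163, Cbr2 and Pf4) and 1 higher (Folr2) on TPM, 5 of 8 where 64.6% of all genes were called either way, and 2 lower (Lyve1 and Cd163) and 1 higher (Folr2) on rescaled TPM. These shares are near those of all genes for the lower calls, so the counts themselves say nothing particular about border macrophage markers. The median log2 fold change of the 8 was -1.30 on TPM and -0.59 on rescaled TPM. The TPM of the groups did not overlap for 3 of the 8, 2 lower and 1 higher, where 49.7% of all tested genes were lower and 7.97% higher without overlap (57.7% either way). In the authors' deposited table Lyve1 and Cd163 were lower and Folr2 higher at an adjusted p under 0.05. Of 27039 genes there, 17.6% were higher and 16% lower (33.6% either way). Mrc1, Pf4, F13a1, Cbr2 and Stab1 were not called there (deposited p adjusted here = 0.142 to 0.978). Their log2 fold changes were -0.03, -0.30, -0.15, -0.45 and 0.65.

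**Figure D1:**
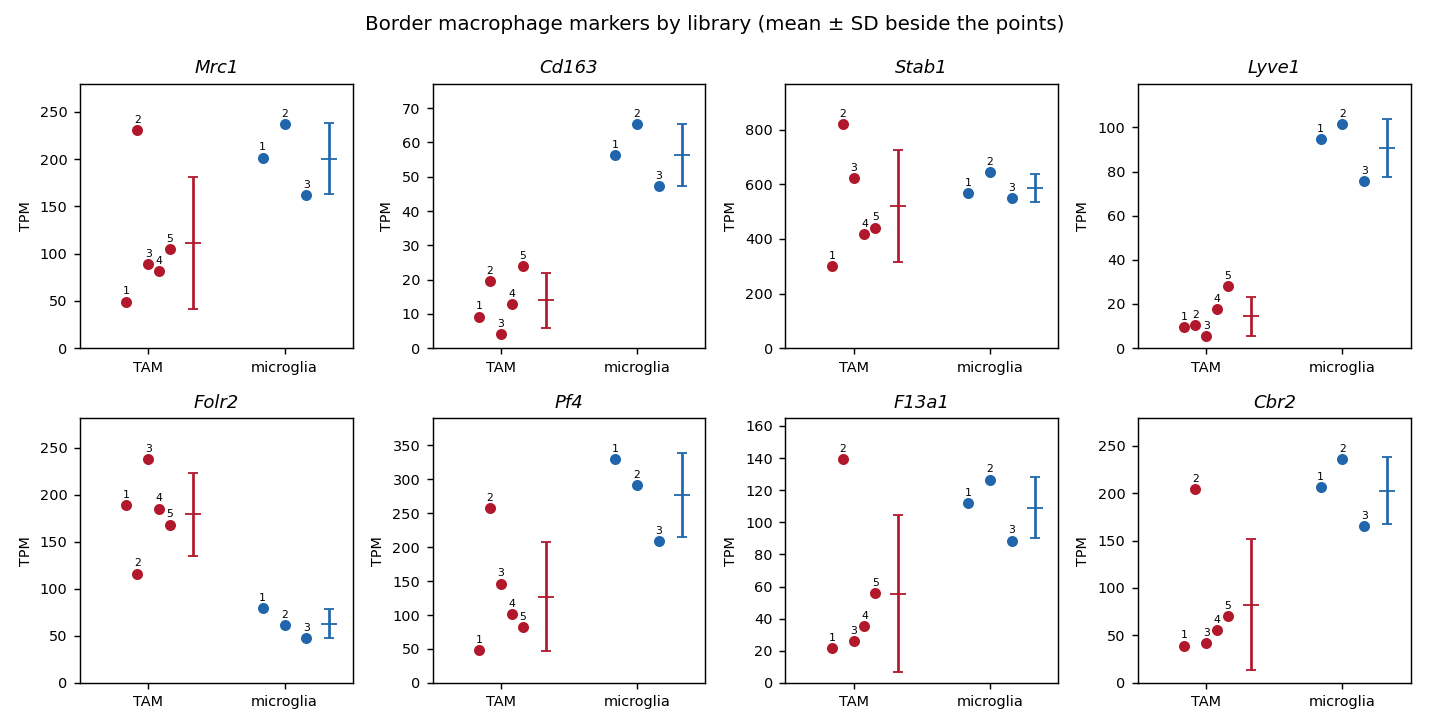
TPM of each of the 8 markers in the TAM libraries (red, n = 5) and the microglia libraries (blue, n = 3), on linear axes from 0; numbers beside the points are the replicate numbers, and the bars are mean ± SD. Lyve1 and Cd163 lay below, and Folr2 above, every microglia library in all 5 TAM libraries, while TAM replicate 2 reached the microglia range for Mrc1, Pf4, F13a1 and Cbr2.

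Lyve1 (chromosome 7, 110850607 to 110862953 on mm10, minus strand) had 9.57, 10.52, 5.50, 17.8 and 28.2 TPM in TAM libraries 1 to 5, against 94.6, 102 and 75.8 TPM in microglia libraries 1 to 3. Every TAM library was far below the lowest microglia library. Lyve1 fell by 2.76 on the log2 scale in TAMs (SE 0.43, limma adjusted p = 0.00100) and by 2.07 on rescaled TPM (SE 0.39, adjusted p = 0.00343). The TAM mean was 0.158 of the microglia mean. Of the defining genes of lymphatic endothelium, Mmrn1 was at 0 to 0.0854 TPM in TAMs and 0 to 0.0357 TPM in microglia, and Prox1 at 0.308 to 6.55 TPM in TAMs and 3.85 to 5.46 TPM in microglia. Of that 6-gene list 1 was called lower (Flt4) on both scales among 4 tested, where 56.4% of all tested genes were on TPM (25.1% rescaled). Flt4 was at 0.124 to 0.995 TPM in TAMs and 2.05 to 7.48 TPM in microglia. It fell by 2.11 on TPM and by 1.68 rescaled (limma adjusted p = 0.00160 and 0.00260). The other 3 tested were not called on TPM. The list summed to 1.59 to 18.3 TPM in TAMs and 6.65 to 22.1 TPM in microglia. The part of lymphatic endothelium in the Lyve1 level was not tested. In the authors' deposited table Lyve1 had a log2 fold change of -1.87 (deposited p adjusted here = 3.11e-05).

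Cd163 (chromosome 6, 124304656 to 124330527, plus strand) had 9.17, 19.7, 4.12, 12.8 and 23.9 TPM in the TAM libraries, against 56.3, 65.4 and 47.3 TPM in the microglia libraries. The groups did not overlap, and TAM replicate 3 was lowest for Cd163 as for Lyve1. Cd163 fell by 2.13 in TAMs (SE 0.47, limma adjusted p = 0.00462) and by 1.44 on rescaled TPM (SE 0.44, adjusted p = 0.0270). On rescaled TPM the call was lost without TAM replicate 1 (log2 fold change -1.39, adjusted p = 0.0526) and without any 1 microglia library (adjusted p = 0.0528 to 0.0759). The authors' deposited table gave -1.21 (deposited p adjusted here = 0.0185). A further list held genes that carry haemoglobin or haem, take it up, break it down or store and export its iron, with their regulators. Of its 12 tested genes 5 were called higher and 2 lower on TPM (8 and 0 rescaled). Among all tested genes 8.22% were called higher and 56.4% lower on TPM (24.6% and 25.1% rescaled). The ferritin subunits Ftl1 and Fth1 rose by 0.86 and 0.56 (limma adjusted p = 0.00527 and 0.0194), and Slc48a1 by 0.72 (adjusted p = 0.0171). Bach1 fell by 1.09 on TPM (limma adjusted p = 0.000317) and stood at -0.38 without a call on rescaled TPM (adjusted p = 0.0900). Hmox1, the haem-degrading oxygenase, was at 414 ± 259 TPM in TAMs (SD, n = 5) and 407 ± 69.2 TPM in microglia (SD, n = 3), with a log2 fold change of -0.15 and no call (adjusted p = 0.756).

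Stab1 (chromosome 14, 31139013 to 31168641, minus strand), the third scavenger receptor, had 299, 821, 623, 416 and 442 TPM in the TAM libraries, against 567, 645 and 549.6 TPM in the microglia libraries. The groups overlapped, with TAM replicate 2 above and TAM replicates 1, 4 and 5 below all microglia libraries. The log2 fold change was -0.26 with a 95% interval of -0.93 to 0.41 (limma adjusted p = 0.455), and 0.46 on rescaled TPM with an interval of -0.27 to 1.19 (adjusted p = 0.256), so its direction turned with the scaling. Stab1 overlaps the protein-coding gene Nt5dc2 on the other strand, and without a stated strand their reads cannot be told apart. Endothelial markers, which could add Stab1, summed to 16.6 to 95.5 TPM in TAMs and 626 to 1985 TPM in microglia. In TAMs 12 of 12 were called lower on both scales, where 56.4% of all tested genes were on TPM (25.1% rescaled). The part of endothelial cells in the Stab1 level was not tested.

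Folr2 (chromosome 7, 101839990 to 101845331, minus strand) went the other way. It had 189, 116, 238, 185 and 168 TPM in the TAM libraries, against 79.5, 61.6 and 47.9 TPM in the microglia libraries. All 5 TAM libraries were above the highest microglia library, and TAM replicate 2, high for most other markers, was the lowest TAM library here. Folr2 rose by 1.49 on the log2 scale (SE 0.24, limma adjusted p = 0.00110) and by 2.20 on rescaled TPM (SE 0.30, adjusted p = 0.000790), and the TAM mean was 2.84 times the microglia mean. The authors' deposited table gave 2.26 (deposited p adjusted here = 8.17e-10). The antisense gene Gm10602 and the pseudogene Gm45319 lie within the longer Folr2 model of GENCODE M21, so reads of the locus are uncertain to that extent. Among the other folate carriers, Slc19a1, the reduced folate carrier, fell by 1.63 (adjusted p = 0.000448, and by 0.96 rescaled), Slc46a1, the proton-coupled one, had -0.74 without a call (adjusted p = 0.0746), and Folr1 was at 0.927 to 3.25 TPM in TAMs and 1.23 to 2.55 TPM in microglia.

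Mrc1 (chromosome 2, 14229392 to 14332057, plus strand, with the microRNA gene Mir511 inside it) had 49.2, 231, 89.0, 81.1 and 104.8 TPM in the TAM libraries, against 202, 237 and 162 TPM in the microglia libraries. TAM replicate 2 lay within the microglia range and the other 4 TAM libraries below it. Over all libraries the log2 fold change was -1.02 with a 95% interval of -1.98 to -0.06 before adjustment, and it missed the threshold (limma adjusted p = 0.0592). On rescaled TPM it was -0.31 with an interval of -1.27 to 0.66 (adjusted p = 0.571), and -0.03 in the authors' deposited table. TAM replicate 2 was singled out after its values were seen, so p-values without it rest on a choice made from the same values. Without it Mrc1 was called lower, at -1.33 on TPM (SE 0.26, limma adjusted p = 0.00362) and at -0.62 on rescaled TPM (SE 0.22, adjusted p = 0.0465). Its relative Mrc2, which encodes an endocytic receptor for collagen known from fibroblasts, was at 0.713 ± 0.326 TPM in TAMs (SD, n = 5) and 25.3 ± 4.98 TPM in microglia (SD, n = 3), and fell by 3.94 (SE 0.21, limma adjusted p = 1.31e-05).

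Pf4 (chromosome 5, 90772435 to 90773383, plus strand) had 47.9, 257, 146, 102 and 82.7 TPM in the TAM libraries, against 330.3, 292 and 208 TPM in the microglia libraries. TAM replicate 2 overlapped the microglia range and the other 4 did not. Pf4 fell by 1.31 on the log2 scale on TPM (SE 0.47, limma adjusted p = 0.0367), and the call was absent on rescaled TPM at -0.60 (adjusted p = 0.359), with the replicate block at -1.15 (adjusted p = 0.143) and when TAM replicate 4, TAM replicate 5 or any 1 microglia library was omitted (adjusted p = 0.0563 to 0.105). Ppbp, the chemokine that platelets store with PF4, was at 0.0801 to 0.792 TPM in TAMs and 0.313 to 0.751 TPM in microglia, and Gp6, the platelet collagen receptor, at 0 to 0.0403 TPM in TAMs and 0 in all microglia libraries. The 12-gene list summed to 6.45 to 15.0 TPM in TAMs and 69.3 to 84.0 TPM in microglia. On TPM 1 of 6 tested was called higher (Clec1b) and 5 lower (Gp9, Gp1ba, Itga2b, Treml1 and Itgb3). On rescaled TPM 1 was called higher (Clec1b) and 2 lower (Gp9 and Gp1ba). Among all tested genes 8.22% were called higher and 56.4% lower on TPM (24.6% and 25.1% rescaled). Gp9, at 0.713 ± 0.506 TPM in TAMs (SD, n = 5) and 51.8 ± 6.73 TPM in microglia (SD, n = 3), made up most of the microglia sum.

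F13a1 (chromosome 13, 36867178 to 37050244, minus strand) had 21.5, 139.6, 25.8, 35.4 and 55.7 TPM in the TAM libraries, against 112, 127 and 88.7 TPM in the microglia libraries. TAM replicate 2 was above every microglia library and the other 4 below all of them. The log2 fold change over all libraries was -1.29 (SE 0.54, limma adjusted p = 0.0637) on TPM and -0.58 (adjusted p = 0.397) on rescaled TPM, with no call on either. Without TAM replicate 2, a library singled out after its values were seen, it was -1.71 (SE 0.31, limma adjusted p = 0.00276) on TPM. On rescaled TPM it was then -1.01 (SE 0.24, adjusted p = 0.0123). The antisense genes Gm49144 and Gm30489 overlap F13a1, whose reads are uncertain to that extent.

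Cbr2 (chromosome 11, 120729489 to 120732114, minus strand) had 39.4, 204, 41.9, 55.9 and 70.7 TPM in the TAM libraries, against 207, 236 and 165 TPM in the microglia libraries. TAM replicate 2 again stood within the microglia range and the other 4 TAM libraries well below it. Cbr2 fell by 1.57 on TPM (SE 0.49, limma adjusted p = 0.0213) and had -0.86 without a call on rescaled TPM (adjusted p = 0.188). The authors' deposited table gave -0.45 (deposited p adjusted here = 0.615). The call on TPM was lost without microglia replicate 1 (adjusted p = 0.0530) or 2 (adjusted p = 0.0778). Without TAM replicate 2, a library singled out after its values were seen, Cbr2 was called on both scales. It was then at -1.97 (SE 0.22, limma adjusted p = 0.000433) and -1.26 rescaled (SE 0.18, adjusted p = 0.00146). Of its 4 relatives among the carbonyl reductases none was called lower. Dcxr and Cbr3 were called higher on TPM, at 0.45 and 0.53 (limma adjusted p = 0.00555 and 0.0314), whereas Cbr1 and Cbr4 stood at -0.04 and -0.15 without a call (adjusted p = 0.864 and 0.389). On rescaled TPM all 4 were called higher, where 24.6% of all tested genes were (8.22% on TPM).

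**Figure D2:**
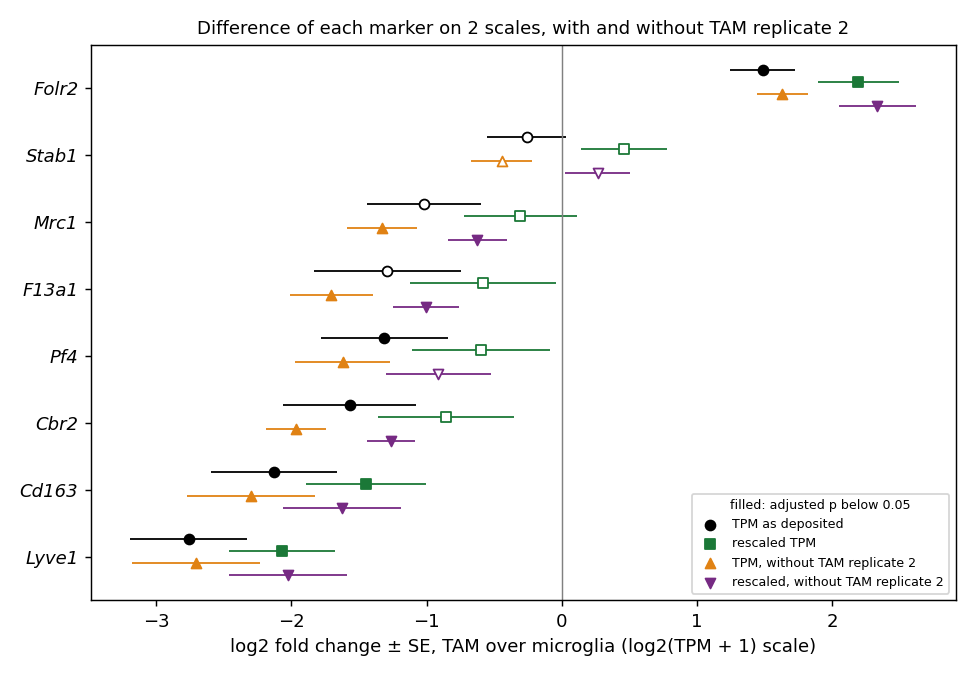
Log2 fold change of each marker, TAM over microglia, with its SE, on TPM (black circles) and rescaled TPM (green squares) with all 8 libraries, and on both scales without TAM replicate 2 (orange and purple triangles); filled symbols have an adjusted p below 0.05. Folr2, Cd163 and Lyve1 are filled under all 4 settings, Stab1 under none, and Mrc1 and F13a1 only without TAM replicate 2. That library was singled out after its values were seen.

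TAM replicate 2, the library of the greatest age, divided the markers. It was the highest of the 5 TAM libraries for 5 of the 8 (Mrc1, Pf4, F13a1, Cbr2 and Stab1), a position it held for 18.3% of all tested genes, and the lowest for Folr2. It carried 4.03 times the mean F13a1 of the other 4 TAM libraries, 3.93 times their Cbr2, 2.85 times their Mrc1 and 2.72 times their Pf4, but 1.57 times their Cd163 and 0.688 times their Lyve1. In this library Lyve1 and Cd163 thus stayed at 0.116 and 0.349 of the microglia mean while Cbr2, Mrc1 and F13a1 were at 1.01, 1.15 and 1.28 times it. Without TAM replicate 2, 6 of the 8 were called lower on TPM (55.2% of all tested genes) and 5 on rescaled TPM (25.5% of all tested genes), with Folr2 called higher on both (8.62% and 25.3% of all tested genes; 63.9% either way on TPM) and Pf4 missing at -0.91 (adjusted p = 0.0885). Singling out this library, and omitting it on rescaled TPM, were chosen after the data were seen. Without any 1 of the other libraries, Mrc1 and F13a1 were not called on TPM. The limma adjusted p was then 0.0816 to 0.174 for Mrc1 and 0.0744 to 0.169 for F13a1.

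The same library differed in other cell type lists. The mean log2(TPM + 1) of 12 resting microglia genes was 5.70 in TAM replicate 2, 7.65 to 8.20 in the other TAM libraries and 9.88 to 10.1 in microglia. Sall1, a transcription factor of microglia, was at 1.76 TPM there, 36.0 to 68.6 TPM in the other TAM libraries and 189 to 217 TPM in microglia. For 15 genes of monocyte-derived macrophages this mean reached 5.76 in TAM replicate 2, with 4.41 to 5.11 in the remaining TAM libraries and 3.38 to 3.89 in microglia. For 10 neutrophil genes it reached 4.35, with 2.75 to 3.27 in the remaining TAM libraries and 2.35 to 2.53 in microglia. Not every gene followed these means. Retnlg was highest in TAM replicate 2 (132 TPM), but Csf3r, also on the neutrophil list, was lowest there (99.4 TPM). Ms4a4c, on the monocyte list, was at 30.3 TPM there and 141 TPM in TAM replicate 1. The summed TPM of the monocyte list was highest in TAM replicate 3 (11885 TPM, against 10297 TPM in TAM replicate 2). The part of these differences in the marker levels was not tested, and age cannot be told apart from this 1 library.

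Ratios to Mrc1 within each library do not depend on the scaling of the library, and 7 were compared, a choice made after the values were seen. Folr2 was at 0.502 to 3.84 times Mrc1 in TAMs and 0.259 to 0.394 times in microglia. The log2 ratio differed by 2.53, all 5 TAM libraries lying above the 3 microglia libraries (two-sided exact permutation test, p = 0.0357, the smallest that 5 against 3 libraries allow, and 0.05 adjusted over the 7). Stab1 was also higher relative to Mrc1, at 3.55 to 7.0 times in TAMs and 2.72 to 3.39 times in microglia, a difference of 0.77. Lyve1 was at 0.0455 to 0.269 times Mrc1 in TAMs and 0.428 to 0.469 times in microglia, a difference of -1.85. Cd163 and Cbr2 were lower relative to Mrc1 as well, by log2 differences of -1.22 and -0.56. These 4 ratios had the same exact p and adjusted p as Folr2, so none of the 5 is below 0.05 after adjustment. No overlap between groups in the ratio to Mrc1 was seen for 9.39% of all tested genes on the higher side and 8.11% on the lower side, 17.5% in all. Pf4 and F13a1 differed less relative to Mrc1, by -0.29 each (exact permutation p = 0.321 and 0.250, adjusted 0.321 and 0.292) and overlapping groups.

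**Figure D3:**
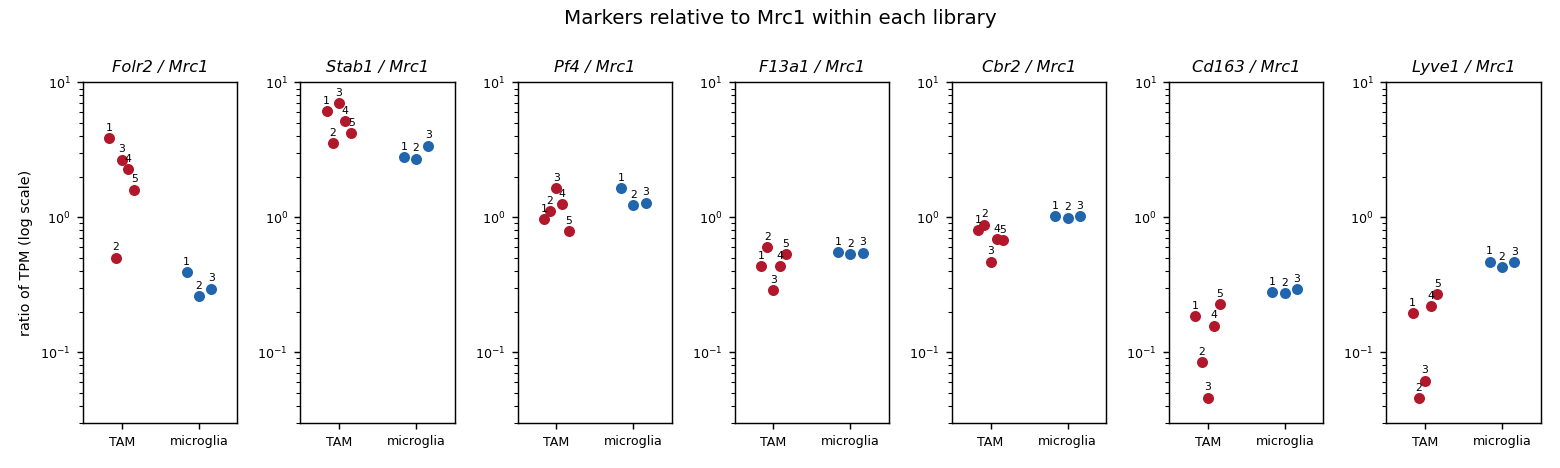
Ratio of the TPM of each of 7 markers to that of Mrc1 in the same library, on a log axis, for the TAM libraries (red, n = 5) and the microglia libraries (blue, n = 3), with replicate numbers beside the points. The 3 microglia libraries lie close together in every panel except Folr2, Stab1 and Pf4, and the TAM libraries spread most for Folr2, Cd163 and Lyve1.

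F13a1 was at 0.533 to 0.555 times Mrc1 and Cbr2 at 0.996 to 1.02 times Mrc1 in all 3 microglia libraries, against 0.290 to 0.604 and 0.470 to 0.883 times in TAMs. Of the summed TPM of the 8 markers, Folr2 took 18.6% ± 7.93 in TAMs (SD, n = 5) and 3.96% ± 0.752 in microglia (SD, n = 3). Lyve1 took 1.47% ± 1.01 in TAMs and 5.71% ± 0.0651 in microglia. The highest TAM library exceeded the lowest 6.50 times for F13a1, 5.81 times for Cd163 and 5.37 times for Pf4, but 2.05 times for Folr2, while in microglia no marker varied more than 1.66 times.

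Likeness of pattern was measured as the root mean square difference between centred log2(TPM + 1) profiles over the 8 libraries, among tested genes with a mean of at least 5 TPM. The closest pair of markers was F13a1 and Cbr2 at 0.19, each the nearest of all genes to the other. Mrc1 was nearest to Dab2, an endocytic adaptor also on the list of border macrophage genes, at 0.21, followed by Rac3 and Gm15523 at 0.24 and 0.26. Pf4 was nearest to Mrc1 at 0.33, and after F13a1 the genes nearest to Cbr2 were Cox6b2 and Lbr at 0.22 and 0.28. Cd163 was close to the lectin gene Clec10a at 0.31, behind Gm26195 at 0.28 and ahead of Gm22933 at 0.35, with Lyve1 as its nearest marker at 0.48. The genes nearest to Lyve1 were Ighj4, Slc7a5 and Myl2 at 0.36 to 0.40. The marker nearest to Folr2 was Stab1 at 1.03, and Folr2 was closest to the lysosomal genes Glmp and Grn at 0.18 and 0.21 and to Ptgr1 at 0.21. Stab1 was nearest to Dedd2, Sgpp1 and Cd302 at 0.12 to 0.17.

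A list of 30 other genes known from border macrophages split in both directions. Of these, 9 were called higher and 10 lower on TPM (12 and 7 rescaled), with a median log2 fold change of -0.27 (0.39 rescaled), and 8 lay above and 8 below all microglia libraries without overlap. Of all tested genes 8.22% were called higher and 56.4% lower on TPM (24.6% and 25.1% rescaled), and 7.97% lay above and 49.7% below without overlap. Ccl8, a chemokine, was at 116 ± 42.9 TPM in TAMs (SD, n = 5) and 5.80 ± 2.21 TPM in microglia (SD, n = 3), and rose by 4.09 (SE 0.32, limma adjusted p = 5.68e-05). Wfdc17 rose by 3.12 and Ms4a7, a membrane protein of macrophages, by 2.68 (adjusted p = 0.000414 and 0.000332). The chemokine gene Ccl24 was at 8.85 ± 2.87 TPM in TAMs (SD, n = 5) and 102 ± 13.3 TPM in microglia (SD, n = 3) and fell by 3.42 (SE 0.22, limma adjusted p = 2.82e-05). Cd209b, a C-type lectin, fell by 3.72, and Egfl7, which endothelial cells also express, fell by 4.94 (adjusted p = 0.000258 and 0.000230). All 6 kept their call and direction on rescaled TPM. TAM replicate 2 was the highest TAM library for 16 of the 30, against 18.3% of all tested genes.

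**Figure D4:**
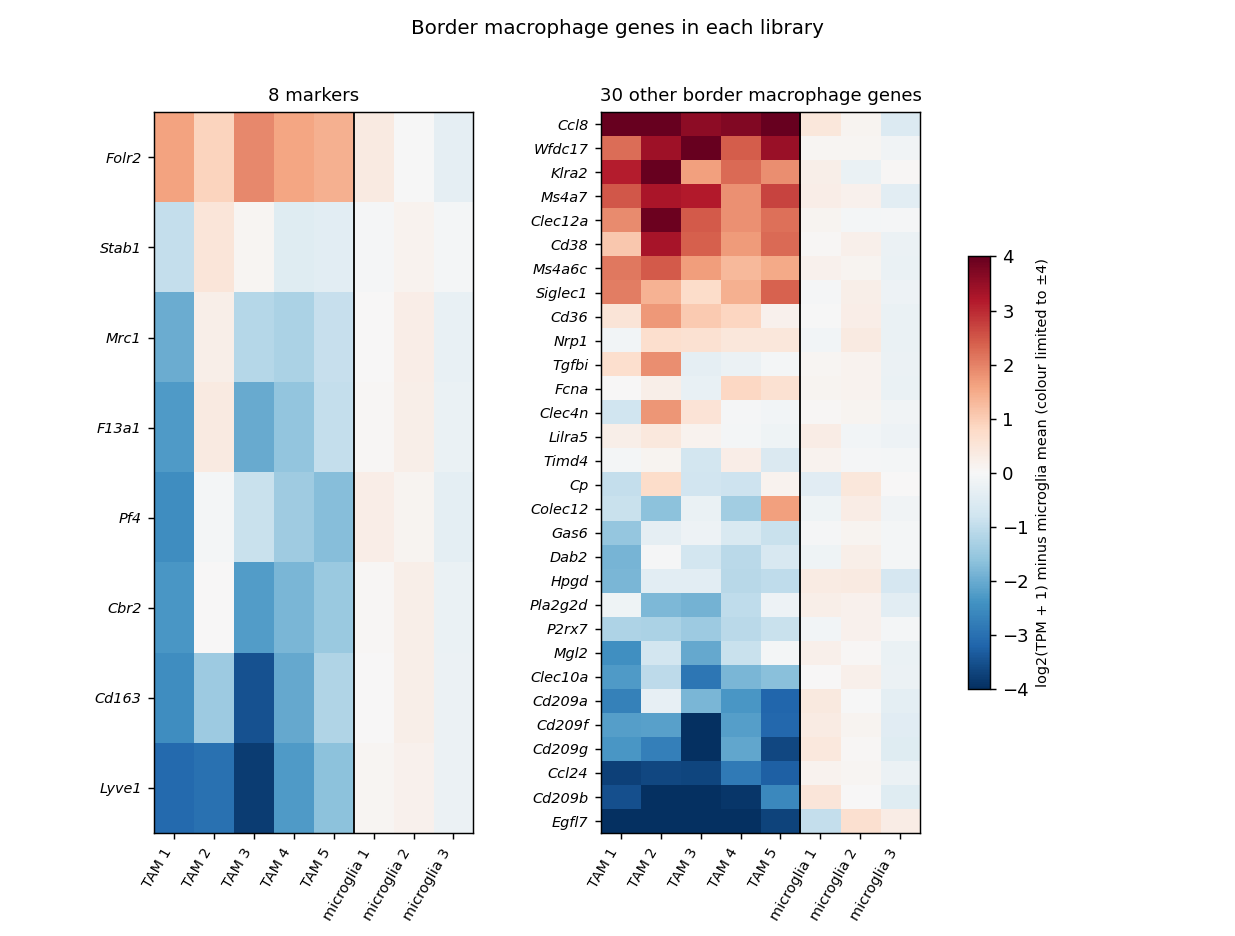
Log2(TPM + 1) of each gene minus its mean over the microglia libraries, with colour limited to ±4, for the 8 markers (left) and the 30 other border macrophage genes (right), ordered by the mean over TAMs; the 5 TAM columns are left of the line and the 3 microglia columns right of it. Ccl8, Wfdc17 and Ms4a7 are red and Ccl24, Cd209b and Egfl7 blue in every TAM library, and TAM replicate 2 is near white for Mrc1, Pf4, F13a1 and Cbr2.

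Among 12 regulators of these cells, 8 were called lower on TPM and none higher, and 5 lower and 3 higher on rescaled TPM. These counts are near the shares of all tested genes (56.4% lower and 8.22% higher on TPM, 25.1% and 24.6% rescaled). Csf1r, the receptor on which macrophages depend for survival, fell by 1.70 on TPM and by 0.98 rescaled (limma adjusted p = 0.000166 and 0.00862). Maf, a transcription factor of tissue macrophages, was called lower on TPM at -0.99 (limma adjusted p = 0.00119), but stood at -0.27 without a call on rescaled TPM (adjusted p = 0.196). Il34, a ligand of CSF1R that neurons make, was at 0.0931 to 1.71 TPM in TAMs and 8.76 to 27.7 TPM in microglia. The captured cells carried Itgam, which encodes CD11b, at 191 ± 38.5 TPM in TAMs (SD, n = 5) and 636 ± 16.1 TPM in microglia (SD, n = 3).

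Mural genes, and those of fibroblasts and meninges, were called lower in TAMs in most or all of each list, where 56.4% of all tested genes were (25.1% rescaled). Mural genes were called lower in 10 of 10 (9 rescaled), with sums of 7.47 to 27.02 TPM in TAMs and 356 to 929 TPM in microglia. Fibroblast and meningeal genes were called lower in 12 of 12 (8 rescaled), with sums of 5.45 to 34.7 TPM in TAMs and 58.9 to 244 TPM in microglia. Of 8 dendritic cell genes 3 of 6 tested were called lower (2 rescaled), a share near that of all genes, with sums of 54.9 to 139 TPM in TAMs and 912 to 1008 TPM in microglia. Siglech, also a microglia gene, gave 6.99 to 109 TPM of these sums in TAMs and 869.7 to 961 TPM in microglia. Early response genes, which rise in tissue dissociation, were called lower in 11 of 12 (8 lower and 1 higher rescaled), with sums of 2932 to 4142 TPM in TAMs and 11977 to 12755 TPM in microglia. Whether these differences have a part in those of the 8 markers was not tested.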

How the data were processed

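The authors deposited 1 table of 38026 genes with a TPM value per library, per the file headers, and the columns of their own comparison: a mean normalized signal, a log2 fold change and a p-value without adjustment. The submitters' processing notes, by the authors, name mm10, FastQC and DESeq2 without versions. Aligner, quantifier, annotation release and strandedness: not given in the sources used here. A further 3 unnamed columns were not used. TPM keeps no depth, and each library summed to 990422 to 997832 TPM over the genes listed. A set of 3 features held an uneven share of these sums. The share was 25.6, 24.9, 20.8, 20.2 and 13.6% in TAM libraries 1 to 5. It was 15.3, 3.20 and 9.24% in microglia libraries 1 to 3. The part of this uneven share in the many lower calls on TPM was not tested.

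The 15262 genes reaching 1 TPM in 3 or more libraries were tested with limma 3.58.1 (R 4.3.3, intensity trend) on log2(TPM + 1), all 8 libraries in 1 fit, with Benjamini-Hochberg adjustment over all tested genes at 0.05. Fold changes on this scale understate those of low genes. The deposited p-values were adjusted the same way over 27039 genes. Rescaled TPM was divided by each library's median ratio to the geometric mean library, taken over the tested genes above 0 in every library. The fit was tested on simulated data. Alternatives were another scaling, pseudocount and filter, a replicate block and leaving out each library. The labels do not say whether libraries of a group came from separate or pooled mice, so p-values measure the spread between libraries. The markers and lists were chosen with earlier results of these data known. Named genes are the 8 markers, up to 4 called genes of lowest p and the 2 most abundant of each list, 3 genes of closest pattern per marker, and checks of the captured cells. Mmrn1, Ppbp, Gp6, Treml1, Folr1, Slc46a1, Cbr1, Cbr3, Cbr4, Sall1, Hmox1 and Maf were named after their values were seen. Gene models were compared with GENCODE M21 and promoters taken from RefSeq.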

Additional observations from a re-analysis of the deposited data

Results flagged for a closer look

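On TPM without logs, Cbr2 and F13a1 each had 1 TAM library far from the other 4. Chance flags about 5% of groups where values are normally distributed, and skewed values such as TPM can be flagged more often. The gaps were not taken on the log2 scale of the fits. For Cbr2 the gap between TAM replicate 2 (204 TPM) and the next library was 0.81 of the whole range, and for F13a1 (139.6 TPM in TAM replicate 2) it was 0.71, just past the limit of 0.71 for 5 samples. Of 85 other named genes, 12 were apart in the same way, a count not to be set against chance, since Cox6b2, Gm15523 and Lbr were named for a pattern close to markers that were high in TAM replicate 2. TAM replicate 2 was the high library for Retnlg (0.924), Cox6b2 (0.903), Cd44 (0.848), Gm15523 (0.832), Vim (0.819), Lbr (0.789) and Cd209a (0.747). TAM replicate 5 was the high library for Igf2 (0.846), Myh11 (0.842), Ly6c1 (0.821) and Vtn (0.718), and TAM replicate 1 for Ms4a4c (0.731).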

How the results depend on the processing

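Folr2, Lyve1 and Cd163 kept direction and call under the pseudocount, filter and block alternatives, on rescaled TPM and without each library on TPM. Rescaling moved Stab1 to 0.46, ended the calls of Cbr2 (-0.86) and Pf4 (-0.60), and gave 3755 genes higher and 3837 lower in place of 1254 and 8610, so that the share of higher calls depends on the scale. Pf4 also lost its call without a filter (-1.31, adjusted p = 0.0590) and with the replicate block (-1.15). Leaving out 1 library on TPM gave -1.97 to -1.38 for Cbr2, -2.36 to -1.79 for Cd163, -1.71 to -1.04 for F13a1, -1.33 to -0.78 for Mrc1, -1.62 to -1.02 for Pf4 and -0.44 to -0.08 for Stab1. It gave 894 to 1303 genes higher and 5581 to 9243 lower, the 5581 without microglia replicate 2, and 8 to 10 of the 30 other border macrophage genes higher and 8 to 11 lower. On rescaled TPM the ranges were -1.26 to -0.70 for Cbr2, -1.63 to -1.11 for Cd163, -1.01 to -0.37 for F13a1, -0.62 to -0.10 for Mrc1, -0.91 to -0.34 for Pf4 and 0.27 to 0.60 for Stab1, with 2485 to 3943 genes higher and 2144 to 4068 lower (2485 and 2144 without microglia replicate 3, and 2260 lower without microglia replicate 2), and 9 to 12 of the 30 other border macrophage genes higher and 5 to 8 lower (5 without microglia replicate 1 and 6 without replicate 2). The cause was not tested. The replicate block, over replicates 1 to 3 of each group, changed no other call of a marker (Mrc1 -0.97, Cd163 -2.47, Lyve1 -3.30, F13a1 -1.31, Cbr2 -1.51, Folr2 1.48, Stab1 -0.13). Same-numbered libraries deviated from their group means with correlations of 0.15, 0.01 and -0.05, where the other pairs gave -0.25 to 0.18. These values show no pairing by number, but so few libraries cannot exclude one. Of 168 refits of the 8 markers, 125 left direction and call as they were. Depth is unknown, so how far it limits the low values of Cd163 and Lyve1 in TAMs could not be judged.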
